A study of Bos taurus with 11 samples.

Results

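Gene expression under low lysine (LK) was compared directly with that under low histidine (LH) in differentiated bovine mammary epithelial cells (BMEC). The 3 LK and 3 LH libraries were taken by the names of their columns in the table of counts, and make up 6 of the 11 libraries of the series. Description was limited to genes averaging 200 or more raw counts over these 6 libraries, which held for 12710 of the 27607 Ensembl genes in the table (46.0%). The BMEC were primary cells from lactating Holstein cows that were passaged, differentiated with insulin, prolactin and hydrocortisone, and then kept for 60 h in their treatment medium. The LK medium held 20 µM lysine and 40 µM histidine, and the LH medium 80 µM lysine and 10 µM histidine. Both contained 20 µM methionine, the same concentrations of the other amino acids and the same lactogenic hormones. The control medium (CTL) held 80 µM lysine, 40 µM histidine and 20 µM methionine, and the low methionine medium (LM) differed from it in holding 5 µM methionine. The 2 CTL libraries and 2 of the LM libraries entered the fit and are given beside the results where they place a difference. Cells were cultured in triplicate, but nothing in the sources used here ties replicates to separate animals. The p-values therefore rest only on spread between libraries, which may be technical. That spread was largely pooled over genes, with 53.8 prior of 59.8 total degrees of freedom.

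Lysine and histidine are essential amino acids (EAA) that the udder must draw from blood to make milk protein. Lysine enters cells mainly through transporters of cationic amino acids, whereas histidine is carried mainly by transporters of neutral amino acids. Shortage of an amino acid can leave its transfer RNA uncharged, a signal that the kinase GCN2 detects. Translation can then slow, and the transcription factor ATF4 raises the expression of genes for amino acid uptake and synthesis. In the paper's own assay of these cells, protein synthesis fell in LK but was not affected in LH. A direct comparison of the media asks where the response differs between the deficient amino acids, which a comparison of each with CTL does not test.

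The table lists genes by Ensembl identifier. Of 37063 bovine genes in the RefSeq table used for names, 0 carried an Ensembl identifier, so that 0 genes could be named here. Results are therefore given by identifier for the 2 higher and 2 lower differentially expressed genes, past the limits on both adjusted p and fold change, with the smallest p-values and otherwise as counts and ranges. For the same reason, members of pathways and markers of epithelial or other cell types were not analysed here.

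Reads counted on genes numbered 243814561 to 253869127 in the LK libraries and 199231024 to 278354731 in the LH libraries. The genes averaging 200 or more counts held 99.9% of these reads in each library, and 0 of the 12710 genes had a count of 0 in any of the 6 libraries. Over these genes, LK libraries resembled each other more closely than LH libraries did. The median absolute difference in log2 CPM, counts scaled to the size of the library, was 0.102 to 0.115 between LK libraries, 0.131 to 0.187 between LH libraries and 0.164 to 0.218 between an LK and an LH library. In principal component analysis the first component held 40.5% of the variance and separated the treatments, with LK at 14.1 to 19.9 and LH at -24.9 to -11.0. LH replicate 1 lay farthest from the other libraries of its group, at 20.3 on the second component (20.9% of the variance) against -8.28 and -20.7. Each of the 6 libraries correlated best with a replicate of its own treatment, and differences between treatments made up 39.1% of the squared distance between libraries.

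**Figure D1:**
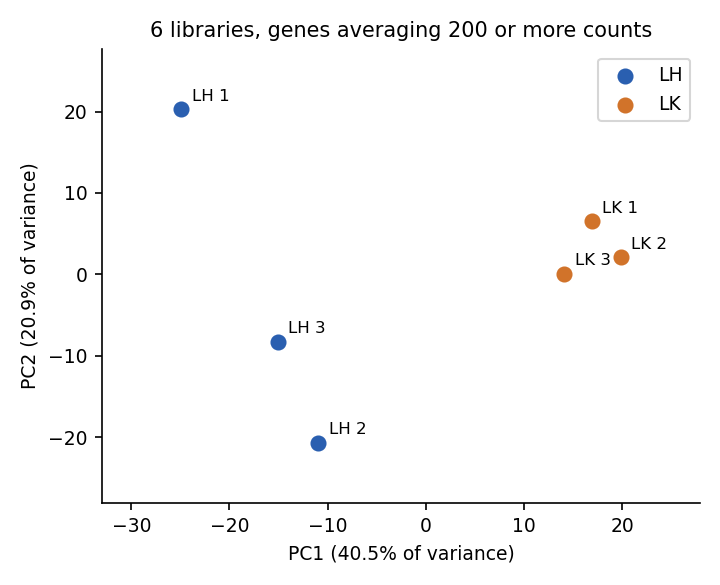
Principal components of log2 CPM over 12710 genes in the 6 LK and LH libraries, with the first component on the horizontal and the second on the vertical axis, and 1 point per library. The LK libraries lie together at 14.1 to 19.9 on the first component, and LH replicate 1 lies at 20.3 on the second.

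Most genes differed little between the deficiencies. The median log2 fold change of LK relative to LH was 0.02, the central 90% of genes lay between -0.49 and 0.43, and the central 98% between -0.96 and 0.79. The 95% interval of the log2 fold change lay within a 2-fold difference in either direction for 11011 genes (86.6%) and within a 1.5-fold difference for 8811 (69.3%). These shares depended on the number of reads. A 1.5-fold difference lay outside the interval for 96.2% of genes averaging 20000 counts or more, but for 62.6% of those averaging 1000 to 5000 and for 0 of the 1111 genes averaging 200 to 500, where the median standard error was 0.55. At the lowest counts, differences of that size were therefore not detectable in either direction.

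Among the 12710 genes, 85 were differentially expressed (DEG) by edgeR's quasi-likelihood test, taking genes that had an adjusted p under 0.05 and differed by 1 or more on the log2 scale. Of these DEG, 32 were higher in LK and 53 were lower. They made up 0.669% of the genes described, against 0.496% of all 18345 genes tested. By direction, 0.252% were higher and 0.417% lower, against 0.18% and 0.316% of all genes tested. All 3 LK libraries lay above or below all 3 LH libraries for each of the 85 DEG. The treatments likewise did not overlap for 3949 of the genes described (31.1%), against 23.8% of all genes tested. With LM replicate 2, which failed the quality checks of the study, added to the fit, edgeR called 47 DEG, 21 higher and 26 lower, and 46 of them were among the 85. When edgeR tested the fold change itself against the threshold of 1 (glmTreat), 1 gene passed in place of 85.

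The DEG were changes of moderate size. The log2 fold changes of the 32 higher genes ranged from 1.01 to 1.76 with a median of 1.18, and those of the 53 lower genes from -1.63 to -1.02 with a median of -1.16. Standard errors had a median of 0.21 among the higher genes and 0.30 among the lower genes. Log2 fold changes within 0.2 of the threshold were found for 19 of the higher and 33 of the lower genes. The 95% interval, unadjusted for the number of genes, lay wholly beyond a 2-fold difference for 4 higher and 4 lower genes. A further 74 genes reached the fold change threshold without passing the adjusted p, 20 of them higher and 54 lower, with a median of 290.4 counts.

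**Figure D2:**
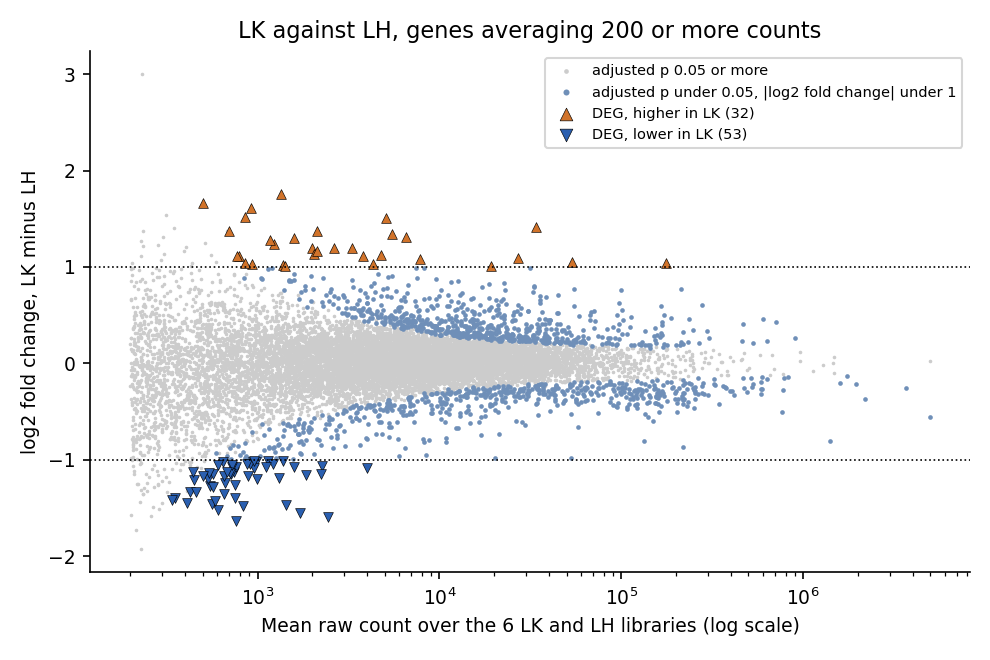
Log2 fold change of LK minus LH (vertical axis) against mean raw count over the 6 libraries (horizontal axis, log scale) for 12710 genes, with dotted lines at -1 and 1. The 32 higher DEG (triangles pointing up) span counts from 503 to 175698, whereas the 53 lower DEG (triangles pointing down) stop at 4016.

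Lower DEG were found at lower counts than higher DEG. Mean counts of the higher DEG ranged from 503 to 175698 with a median of 2087, and those of the lower DEG from 337 to 4016 with a median of 744. Among the 1111 genes averaging 200 to 500 counts, edgeR called 0 DEG higher and 7 lower. In that band DESeq2 called 2 higher and 21 lower, and 9 genes were higher and 45 lower by the fold change threshold with an unadjusted p under 0.05. Among the 1011 genes averaging 500 to 1000, 8 were higher and 33 lower. From 1000 to 5000 counts the directions were about even, with 15 higher and 13 lower among 3752 genes. Above 5000 counts, edgeR called 9 DEG higher and 0 lower among 6836 genes, where DESeq2 called 8 and 0, and 0 genes were lower by the threshold at an unadjusted p under 0.05. Raising the limit from 200 to 500 counts left the 32 higher DEG and 46 of the lower ones. Over all genes of a band, called or not, the median log2 fold change was -0.105 at 200 to 500 counts and -0.036 at 500 to 1000. In the bands above, it was 0.013 to 0.034. Genes averaging 50 to 100 counts, below the limit, had a count of 0 in 0.681% to 5.90% of cases in the LK libraries. In the LH libraries this was 1.82% to 7.60%, highest in LH replicate 1. The part of this shift and of these zeros in the excess of lower DEG at low counts was not tested.

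With the adjusted p alone, 1317 of the genes described (10.4%) differed between LK and LH, against 7.21% of all genes tested. Here 676 were higher in LK (5.32%, against 3.69% of all tested) and 641 lower (5.04%, against 3.52%). The balance between directions depended on the scaling, as 883 genes were higher and 523 lower when libraries were scaled by their totals only, but 633 higher and 676 lower with DESeq2 size factors. Lower genes also outnumbered higher ones with DESeq2 (739 higher, 792 lower), with filterByExpr (512 and 574), when only the genes described were tested, and without any single LK library, LH replicate 2 or LM replicate 3. Of the 1317 genes, 889 had an absolute log2 fold change under 0.5, and 343 lay between 0.5 and 1. The smaller differences were thus found among abundant transcripts, with medians of 20592 counts for the 463 higher and 41781 counts for the 426 lower genes under 0.5. Among genes averaging 5000 to 20000 counts 289 were higher and 150 lower, and among those averaging 20000 or more, 279 were higher and 314 lower. LK replicate 2 weighed most on the number of higher genes, which was 402 without it, against 491 lower. When the fit included LM replicate 2, 180 genes were higher and 165 lower.

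**Figure D3:**
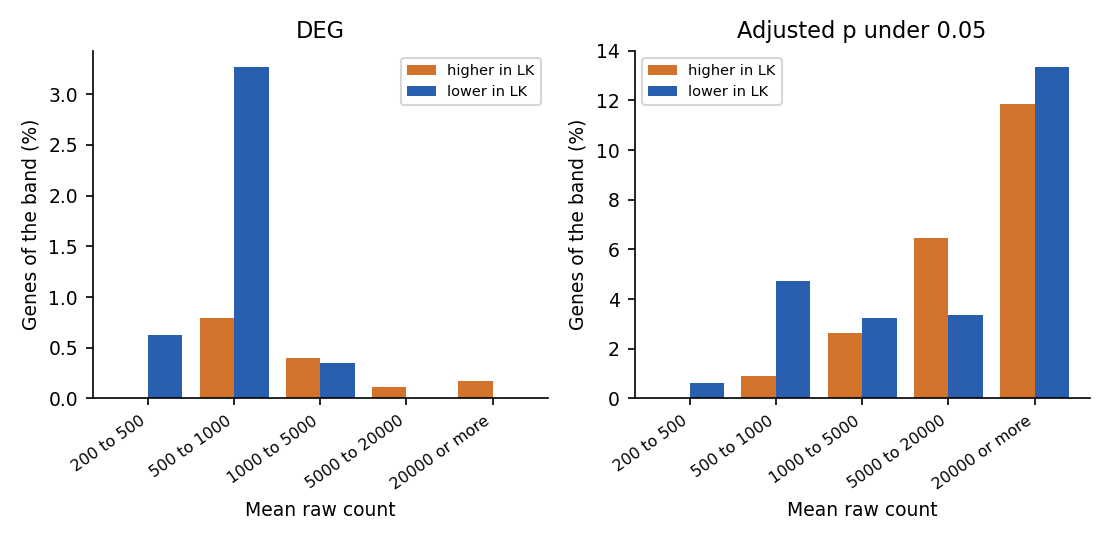
Percentage of genes (vertical axes) called as DEG (left) or with an adjusted p under 0.05 (right) in bands of mean raw count (horizontal axes), with bars for genes higher and lower in LK. Lower DEG reach 3.26% in the band of 500 to 1000 counts and number 0 above 5000, whereas calls by adjusted p alone are most frequent at 20000 counts or more, at 11.8% higher and 13.3% lower.

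The most abundant transcripts took a smaller part of the reads in LK. The 20 genes with the highest mean normalized counts held 13.7% to 13.8% of the reads in the LK libraries and 14.8% to 15.9% in the LH libraries, with no overlap. Of these genes 0 were DEG by edgeR, 0 by DESeq2 and 0 past the fold change threshold at an unadjusted p under 0.05. By adjusted p alone, 11 of the 20 passed, 1 higher and 10 lower in LK, and log2 fold changes of the 20 ranged from -0.80 to 0.26. The share passing was 7.21% of all genes tested and 10.4% of those described. Among genes averaging 20000 counts or more it was 25.2%, with 11.8% higher and 13.3% lower. The 32 higher DEG together held 0.205% to 0.220% of the reads in LK against 0.0936% to 0.0983% in LH, and the 53 lower DEG 0.0120% to 0.0138% against 0.0280% to 0.0301%. These last shares describe genes chosen for the difference.

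ENSBTAG00000003329 had the smallest p-value among the 32 higher DEG and ranked 170 of 12710 by abundance. Its normalized counts were 230258, 232465 and 234772 in LK replicates 1, 2 and 3, and 112586, 112637 and 112957 in LH replicates 1, 2 and 3. The LK libraries were all about 2.06 times as high, with very little spread in either treatment (232498 ± 2257 in LK and 112726 ± 201 in LH, SD, n = 3). The log2 fold change was 1.04 (standard error 0.05, 95% interval 0.94 to 1.15, edgeR adjusted p = 4.33e-23). The CTL libraries had 80160 and 83918 and the LM libraries 146994 and 162756 normalized counts, so that LH lay between CTL and LM, and LK above each of the other libraries.

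ENSBTAG00000007881 had 49223, 44357 and 50480 normalized counts in LK replicates 1, 2 and 3, and 16194, 16714 and 21023 in the LH libraries. Every LK library lay above the highest LH value, and the log2 fold change was 1.42 (standard error 0.09, 95% interval 1.24 to 1.59, edgeR adjusted p = 5.01e-20). This was the gene that passed when the fold change itself was tested (glmTreat in edgeR, adjusted p = 0.00932). It was scarce in CTL, with 3423 and 3301 normalized counts, and intermediate in LM, with 14466 and 11010. Relative to CTL its log2 fold change was 3.84 in LK and 2.42 in LH, from contrasts that share the CTL libraries.

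ENSBTAG00000008758 had the smallest p-value among the 53 lower DEG. Its normalized counts were 1302, 1135 and 1276 in LK and 4020, 3680 and 3514 in LH, and the treatments did not overlap. The log2 fold change was -1.59 (standard error 0.14, 95% interval -1.88 to -1.31, edgeR adjusted p = 3.88e-13). The CTL libraries were the highest, at 8113 and 8337, and the LM libraries, at 3595 and 3067, lay beside LH.

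ENSBTAG00000019262 had 2633, 2217 and 2865 normalized counts in LK and 4794, 5639 and 5929 in LH, so that LK was again below each LH library. Its log2 fold change of -1.08 (standard error 0.13, 95% interval -1.34 to -0.83, edgeR adjusted p = 2.22e-09) was close to the threshold. The CTL libraries had 12753 and 11088 and the LM libraries 4918 and 6655, and the LM values overlapped those of LH.

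**Figure D4:**
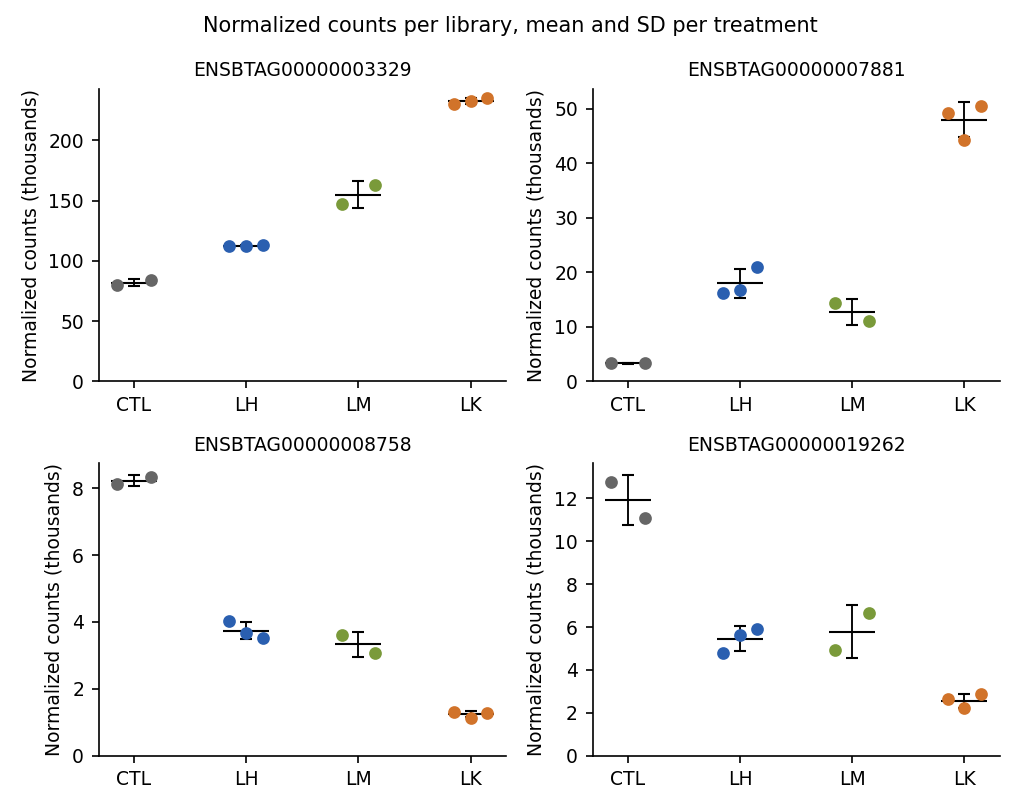
Normalized counts (vertical axes, in units of 1000) in each library of CTL, LH, LM and LK for the 2 higher and 2 lower DEG with the smallest p-values, with 1 point per library and bars for the mean and SD. LK lies farthest from CTL for each gene, and LH lies between CTL and LK.

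The CTL and LM libraries do not enter the contrast of LK and LH itself, but they entered the scaling and dispersion of the fit that chose the DEG. Over the 10 libraries, all LK libraries lay beyond each of the other libraries for 22 of the 32 higher and 44 of the 53 lower DEG. All LH libraries lay beyond the others for 4 and 2 of them. Over all 12710 genes, LK stood apart in this way for 1648 genes and LH for 388. Either can stand apart only where LK and LH libraries do not overlap, which held for each DEG but for 3949 of all genes, so that these shares are not compared. Larger spread among LH libraries reduces the number that can stand apart, and the median SD of log2 CPM was 0.134 in LH against 0.0935 in LK. The number of DEG with LK apart was never under 63 or over 76 with any single library omitted. The number with LH apart was 15 without LH replicate 1, 13 without LH replicate 2, 12 and 11 without CTL replicates 1 and 2, and 3 without LK replicate 2.

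By means of normalized counts, LH lay between CTL and LK for 18 of the 32 higher DEG (56.25%) and 45 of the 53 lower DEG (84.9%). The corresponding shares over all genes were 48.3% and 46.5%. CTL lay between LH and LK for 13 higher and 7 lower DEG, against 25.4% and 23.7% of all genes, and LK lay between LH and CTL for 1 and 1, against 26.3% and 29.8%. The strictest order, with both CTL libraries, then all LH and then all LK libraries in sequence, was found for 13 higher and 31 lower DEG and for 870 of all 12710 genes. Median log2 fold changes relative to CTL were 1.81 in LK and 0.57 in LH for the higher DEG, and -1.98 and -0.69 for the lower DEG. As these contrasts share the CTL libraries and the DEG were chosen on LK and LH, the values are a description.

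LM lay between LK and LH for 21 of the 32 higher and 33 of the 53 lower DEG, against 31.9% and 32.1% of all genes. A wider gap between LK and LH leaves more room for a value in between. LM was beyond LK for 2 higher and 0 lower DEG, against 29.3% and 30.3%. Its median log2 fold change relative to CTL was 0.64 for the higher and -0.73 for the lower DEG, close to the medians of LH.

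**Figure D5:**
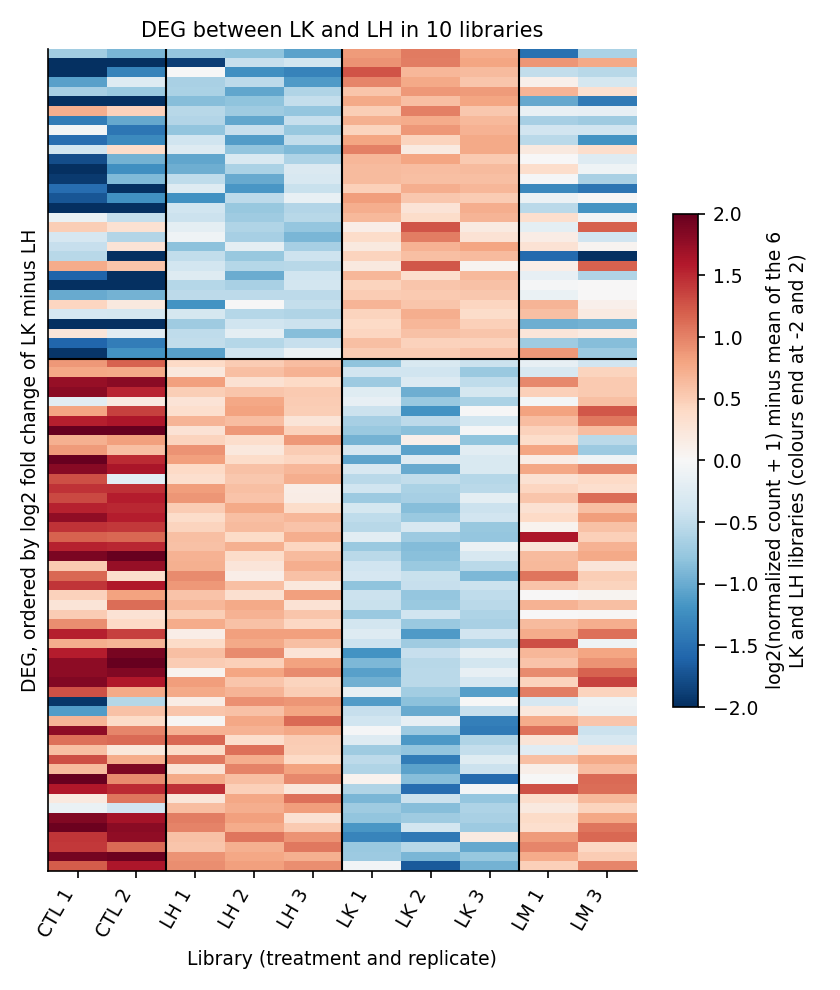
Log2 normalized counts of the 85 DEG (rows, ordered by log2 fold change of LK minus LH, with a line between the 32 higher and 53 lower) in 10 libraries (columns), relative to the mean of the 6 LK and LH libraries. Colours for the lower DEG run from high in CTL through LH to low in LK, an order that holds by means for 45 of 53.

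The set of DEG was less stable than its size. When single LK or LH libraries were left out, edgeR called 74 to 92 DEG, of which 58 to 67 were among the 85. With each of the 6 left out in turn, 32 of the 85 were called every time, 17 higher and 15 lower. DESeq2 called 103 DEG from the same 10 libraries, 83 of them among the 85, and with only the 6 LK and LH libraries in the fit edgeR called 110, which included all 85. Below the limit of 200 counts, 6 DEG were found among 5635 genes (0.106%), 1 higher and 5 lower. The nearest genes on each side of the limit averaged 199.8 and 200.0 counts, and 138 genes averaged 180 to 200 and 117 genes 200 to 220. Of the genes described, 209 averaged under 200 counts in either LK or LH, including 1 DEG.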

How the data were processed

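RNA-Seq libraries of BMEC kept for 60 h in LK, LH, CTL or LM medium were analysed from deposited counts per Ensembl gene. The authors used fastp to clean reads, STAR for alignment on ARS-UCD1.2, and featureCounts for counting, and deposited the counts without normalization. How strand and read pairs were set is not given in the sources used here. Among values of 1 to 20, 72.8% to 76.2% were even in the 6 libraries, so counts are not taken as independent fragments, and intervals cover the spread between libraries only. Conditions and replicate numbers came from the labels, which give no batch.

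The fit, with 4 groups and 10 libraries (LM replicate 2 left out as in the paper), used edgeR 4.0.16 in R 4.3.3 with TMM normalization, a model of treatment only and the quasi-likelihood test. A gene was tested if its reads summed to more than 10 over those libraries, with Benjamini-Hochberg adjustment over all 18345 genes. DEG had an adjusted p under 0.05 and differed by 1 or more on the log2 scale. The F statistic gave the standard errors. Normalized counts are TMM-scaled CPM times the mean library total, and log2 CPM used a prior count of 2. Both edgeR and DESeq2 were tested on simulated data, where DESeq2 called more unchanged genes than edgeR. Those counts were drawn from edgeR's own dispersion trend, with planted changes larger than most DEG showed. The simulation therefore does not rank the tools on these data. DESeq2 1.42.0, fitted to the same 10 libraries, was 1 of the alternatives. The others were only the 6 libraries, all 11 libraries, scaling by DESeq2 size factors or by totals only, filtering by filterByExpr or not at all, a test of the described genes only, the replicate block, glmTreat, adjusted p alone, limits of 100 and 500 counts, and each library left out. A limit of 200 counts in each group was chosen after seeing the data.

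The comparison and the limit of 200 counts were chosen with earlier results of these data known. Genes were to be named by p-value, fold change and gene list. As identifiers were matched to 0 names, the rule's other arm, the 2 higher and 2 lower DEG of smallest p-value, was used. Plots used matplotlib 3.10.9 in Python 3.11.15.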

Additional observations from a re-analysis of the deposited data

How the results depend on the processing

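With LM replicate 2 added (all 11 libraries), 47 genes were called among genes averaging 200 or more counts (21 higher in LK, 26 lower), and the same numbers among all genes tested. Without a limit on the fold change, 1317 genes were called (676 and 641) and 1323 among all tested (677 and 646). Tested against the fold change threshold by glmTreat, 1 gene was called, 1 higher and 0 lower, in both sets, and at an unadjusted p under 0.05 glmTreat gave 12 higher and 12 lower among those averaging 200 or more counts. By glmTreat, 3 of the 4 named genes no longer passed. The named genes otherwise kept direction and call under each alternative run, but their adjusted p-values moved with the filter. For ENSBTAG00000003329 the edgeR adjusted p was 4.33e-23 in the main fit and 6.45e-11 with filterByExpr. Without a limit on low counts it was 1.03e-69. When single libraries were left out, the number of DEG averaging 200 or more counts was 74 to 98 (26 to 37 higher, 47 to 62 lower), and among all genes tested 75 to 111 (27 to 40 and 48 to 71). The other alternatives gave numbers of DEG within 1.5 times those of the report, except as stated for the replicate block. More DEG were lower than higher in LK under each alternative with a limit on the fold change other than glmTreat.

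Deviations from the group means of same-numbered LK and LH libraries correlated across genes with r of 0.06, 0.02 and -0.01. Pairs of unlike number gave r of -0.05 to 0.04. With so few libraries, these values cannot decide whether same-numbered libraries share anything beyond the number. With the replicate block, 93 DEG averaging 200 or more counts were called in the fit of 10 libraries, against 85 without it. With only the 6 LK and LH libraries, 121 were called with the block and 110 without it. In the blocked fit of 6 libraries, 51 of the DEG among all genes tested were higher, against 45 without the block. By adjusted p alone, 1059 genes averaging 200 or more counts were higher, against 804. The main fit of 10 libraries gave 33 and 676. LK replicates 2 and 3 correlated best with LH replicates of another number.

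Single libraries of LK and LH, with 3 each, were not tested as outliers. Genes averaging 200 to 500 counts had a median standard error of 0.55, which limits calls to large differences there.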
